A study of Mus musculus with 18 samples.

Results

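The genes described here are 10 components of the NF-κB system that are themselves switched on by NF-κB or hold it in check, and they were taken by gene symbol from the table of estimated counts. They are 3 subunit genes (Nfkb1, Nfkb2 and Relb), 4 genes of the IκB family (Nfkbia, Nfkbib, Nfkbie and Nfkbiz), 2 genes of the ubiquitin-editing brake (Tnfaip3 and Tnip1) and Birc3. They are 10 of the 57180 genes in the table, and all 10 were among the 14263 genes with enough counts to be tested. RNA came from L929, a line of wild-type mouse fibroblasts, in 6 groups of 3 independent cultures each. The Mock group is labelled DMSO. The AOA group received 0.5 mM aminooxyacetic acid, an inhibitor of aminotransferases, and the AOA+Asp group received AOA with 20 mM aspartate. The HT-DNA group was transfected with herring testis DNA, an activator of the cGAS-STING pathway, at 0.5 µg/ml for 6 h with Lipofectamine. The HT-DNA+AOA group had AOA for 1 h before HT-DNA, and the HT-DNA+AOA+Asp group had aspartate as well. No group had aspartate alone or aspartate with HT-DNA alone, and the labels do not say whether cells without HT-DNA had the transfection reagent. The comparisons ask what AOA does to these genes without and with HT-DNA, whether aspartate returns them towards the level without AOA, and what HT-DNA does in each setting.

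NF-κB proteins are dimers that wait in the cytoplasm, bound by IκB proteins, until a receptor or DNA sensor activates the IKK kinases and the IκB is degraded. In the canonical arm the freed dimers contain RelA and p50, and in the non-canonical arm the kinase NIK triggers processing of p100 to p52, which pairs with RelB. Freed dimers raise transcription of their own inhibitors and of several subunits, so mRNA of these genes is widely used as a readout of NF-κB activity. STING, which acts downstream of the DNA sensor cGAS, signals to IRF3 and also to NF-κB.

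Promoter sequence was found for 7 of the 10 genes in RefSeq (build GRCm38.p6, 250 bases before to 50 bases after each start of transcription), and no entry was found for Nfkbiz, Nfkb1 and Relb. A match to the κB consensus, the sequence that NF-κB dimers bind, was sought on both strands, and overlapping matches were counted separately. It was present in 5 of the 7 genes (Nfkbia, Nfkbie, Nfkb2, Tnfaip3 and Tnip1) and in 5.14% of 27025 genes in the whole promoter table. Counted by window, it was in 7 of 10 windows of these genes and in 4.5% of all 32851. The genes were chosen as parts of NF-κB feedback, so these shares are background and not a result of the expression data. A match describes the letters only and was not tested for binding. The windows below show 3 genes whose mRNA rose with AOA and hold a match (Nfkbia, Nfkbie and Nfkb2), 1 that holds a match and did not pass the test with AOA (Tnip1), and 1 that rose without a match in this window (Nfkbib). Capitals mark the matches, and each line gives the strand of the gene.
Nfkbia, chr12:55492598-55492897, minus strand: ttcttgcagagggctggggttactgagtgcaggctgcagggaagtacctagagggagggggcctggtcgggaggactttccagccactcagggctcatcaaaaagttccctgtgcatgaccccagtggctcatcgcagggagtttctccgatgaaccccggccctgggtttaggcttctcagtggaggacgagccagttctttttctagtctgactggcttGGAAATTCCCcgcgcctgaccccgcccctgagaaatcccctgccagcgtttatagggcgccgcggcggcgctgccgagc
Nfkbie, chr17:45555450-45555749, plus strand: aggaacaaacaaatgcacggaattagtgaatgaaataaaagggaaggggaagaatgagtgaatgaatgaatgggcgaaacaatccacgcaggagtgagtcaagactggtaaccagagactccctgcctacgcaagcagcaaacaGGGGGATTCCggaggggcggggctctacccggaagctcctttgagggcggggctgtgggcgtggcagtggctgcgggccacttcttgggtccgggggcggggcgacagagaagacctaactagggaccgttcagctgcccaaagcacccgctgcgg
Nfkb2, chr19:46304487-46304786, plus strand: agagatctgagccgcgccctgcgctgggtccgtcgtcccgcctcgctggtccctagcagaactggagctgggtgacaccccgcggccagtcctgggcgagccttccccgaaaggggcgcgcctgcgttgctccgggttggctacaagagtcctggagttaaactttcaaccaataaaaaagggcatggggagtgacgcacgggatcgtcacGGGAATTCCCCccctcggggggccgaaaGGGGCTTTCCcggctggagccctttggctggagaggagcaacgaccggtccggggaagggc
Tnip1, chr11:54962891-54963190, minus strand: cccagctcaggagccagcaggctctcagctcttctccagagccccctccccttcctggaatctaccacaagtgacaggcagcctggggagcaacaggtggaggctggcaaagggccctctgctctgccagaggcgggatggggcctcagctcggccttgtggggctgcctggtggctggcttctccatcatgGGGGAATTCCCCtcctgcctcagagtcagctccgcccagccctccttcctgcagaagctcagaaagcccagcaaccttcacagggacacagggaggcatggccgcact
Nfkbib, chr7:28766595-28766894, minus strand: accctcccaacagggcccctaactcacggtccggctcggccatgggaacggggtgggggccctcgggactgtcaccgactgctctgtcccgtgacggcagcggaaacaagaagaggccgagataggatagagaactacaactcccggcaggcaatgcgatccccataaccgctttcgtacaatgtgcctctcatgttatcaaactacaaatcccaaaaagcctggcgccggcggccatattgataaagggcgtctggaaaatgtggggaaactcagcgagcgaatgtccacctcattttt
The match in Nfkbia began 29 bases before the start and that in Nfkbie 106 bases before it. The Nfkb2 window, the most upstream of 3 for this gene, held 3 matches, 2 of them overlapping, that began 39, 38 and 11 bases before the start. Tnip1 held 3 overlapping matches that began 58, 57 and 56 bases before the start. Tnfaip3 held GGGACACCCC from 125 bases and GGAAATCCCC from 12 bases before the upstream of its 2 starts.

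The libraries held 17901605 to 24057343 counts with a median of 20385838. Levels are given as CPM, the counts relative to the TMM-scaled library size, and these are levels of mRNA per gene that are comparable between libraries but not between genes. In these bulk samples, fewer cells that express a gene and less RNA per cell cannot be told apart. The fibroblast markers Col1a1, Col1a2, Col3a1, Pdgfrb, Vim and S100a4 were expressed at group means of 20.3 CPM or more, whereas Thy1 stayed at or under 0.0743 CPM. The leukocyte markers Ptprc and Adgre1 had 0 counts in every group. Of that list only Cd68 was abundant, at group means of 114 to 144 CPM, and the sum of the 5 markers ran from 114.5 CPM in AOA+Asp to 144.1 CPM in HT-DNA+AOA. The 3 HT-DNA+AOA libraries differed more among themselves than replicates of any other group. Their chi-square per degree of freedom, which is 1 where only counting error is present, was 18.2 to 67.0 between pairs, compared with 2.78 to 13.3 in the other groups. Replicate 3 of HT-DNA+AOA was highest of the 3 for Nfkbia, Nfkbib, Nfkbie, Tnip1, Nfkb2 and Relb, whereas replicate 1 was highest for Nfkbiz, Tnfaip3 and Nfkb1. The part of this spread in the results was not tested beyond leaving out each library, and values without 1 library are given where a call depends on it.

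AOA alone raised 7 of the 10 genes (Nfkb1, Nfkb2, Relb, Nfkbia, Nfkbib, Nfkbie and Nfkbiz) and lowered 0, and across all genes tested 22.4% rose and 23.3% fell (edgeR quasi-likelihood test with Benjamini-Hochberg adjustment over 14263 genes, adjusted p under 0.05). The median log2 fold change of the 10 genes was 0.62, and that of all genes was 0.02. At an unadjusted p under 0.05, and also with DESeq2, 0 of the 10 were lower. Library totals in place of TMM scaling gave 6 higher, with Nfkb1 lost, and 1 lower, Tnip1. Aspartate added to AOA lowered 7 genes (Nfkb1, Nfkb2, Relb, Nfkbia, Nfkbib, Nfkbie and Nfkbiz) and raised Tnfaip3 relative to AOA (23.5% of all genes rose and 22.8% fell). Relative to Mock, AOA+Asp changed 0 of the 10 genes by edgeR (2.52% of all genes rose and 3.95% fell). At an unadjusted p under 0.05, 1 gene was higher and 3 were lower in that comparison, and DESeq2 called 1, Tnfaip3. When only the AOA+Asp and Mock libraries were fitted, edgeR called Nfkbiz (log2 −0.28, adjusted p = 0.0049) and Nfkb2 (−0.21, 0.031) lower. That fit also called Tnfaip3 higher (log2 0.54, adjusted p = 0.0216), and library totals called Tnip1 lower (−0.21, 0.048). AOA vs Mock and AOA+Asp vs AOA share the AOA libraries, so the directions in one are not independent of those in the other. With library totals in place of TMM scaling, 32.1% of the calls over all genes were higher with AOA, compared with 49.1% under TMM, and all 10 genes are reported relative to the TMM scale.

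HT-DNA alone raised 7 genes (Nfkb1, Nfkb2, Relb, Nfkbia, Nfkbib, Nfkbie and Tnip1) and lowered 1 (Nfkbiz), where 24.2% of all genes rose and 24.0% fell. With library totals, 35.2% of the calls over all genes were higher with HT-DNA, compared with 50.2% under TMM. The 7 genes raised became 5 with library totals, with no filter on low counts and without Mock replicate 1 or 3. Nfkb1 and Nfkbie were lost in each of these. The 7 became 6 without Mock replicate 2 or any HT-DNA replicate. In cells given AOA first, HT-DNA raised 3 genes (Nfkbia, Nfkbiz and Tnfaip3) and lowered 0 relative to AOA alone by edgeR, where 6.46% of all genes rose and 6.98% fell. In that comparison 6 genes were higher and 0 lower at an unadjusted p under 0.05, and DESeq2 called 5 higher and 0 lower. Without HT-DNA+AOA replicate 1, edgeR called 6 higher, with Nfkb2 (log2 0.24, adjusted p = 0.0287), Nfkbib (0.32, 0.0264) and Nfkbie (0.47, 0.021) gained. Without HT-DNA+AOA replicate 3 it called 4 higher, with Nfkb1 gained (log2 0.25, adjusted p = 0.0164). With AOA and aspartate, HT-DNA changed 0 of the 10 relative to AOA+Asp by edgeR and by DESeq2, where 1.93% of all genes rose and 1.52% fell, and 4 genes were higher at an unadjusted p under 0.05. HT-DNA+AOA exceeded HT-DNA in 8 genes and fell below it in 1, Tnip1 (22.8% of all genes rose and 22.7% fell). The 8 became 5 without HT-DNA replicate 1, and also 5 when only these 6 libraries were fitted, with Nfkb1, Nfkbib and Tnfaip3 lost in both. Aspartate lowered 8 genes, all but Tnfaip3 and Birc3, and raised 0 in cells given HT-DNA and AOA (23.7% of all genes rose and 23.9% fell), with 0 higher also at an unadjusted p under 0.05 and with DESeq2. HT-DNA+AOA+Asp differed from HT-DNA in 9 genes, with 2 higher and 7 lower (23.2% of all genes rose and 23.5% fell), and without HT-DNA replicate 1 or 3 there was 1 higher and 4 were lower. The 2 higher were also 1 without HT-DNA+AOA+Asp replicate 1 or 3, with no filter on low counts and with the replicate number as a block.

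**Figure D1:**
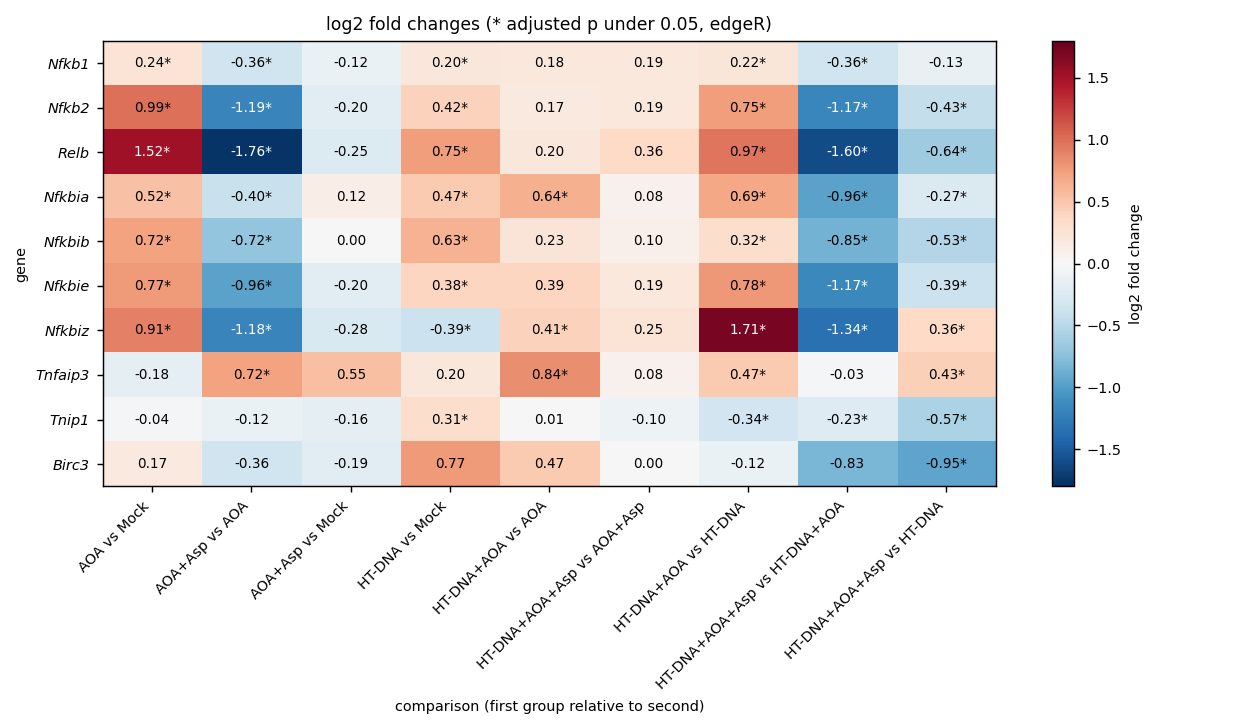
Map of the log2 fold change of each gene (rows) in 9 comparisons (columns, first group relative to second), with the colour scale from −1.8 (blue) to 1.8 (red) and an asterisk where the adjusted p from edgeR is under 0.05. Relb had the largest rise with AOA alone (1.52) and Nfkbiz with AOA on top of HT-DNA (1.71), and the columns AOA+Asp vs Mock and HT-DNA+AOA+Asp vs AOA+Asp have no asterisk.

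Nfkb2 and Relb, the subunits of the non-canonical arm, had the largest log2 fold changes with AOA alone, followed by Nfkbiz, and the differences between these genes were not tested. Nfkb2 encodes p100, the precursor of p52. Without HT-DNA its level was 81.6, 78.7 and 82.0 CPM in Mock, 164, 159.8 and 158 CPM with AOA, and 63.9, 75.8 and 71.2 CPM in AOA+Asp. With HT-DNA its level was 104, 108 and 111 CPM for HT-DNA alone, 163, 168 and 212 CPM for HT-DNA+AOA, and 80.3, 78.8 and 81.3 CPM for HT-DNA+AOA+Asp. All 6 libraries with AOA and no aspartate lay above the other 12. AOA+Asp lay below the Mock range and HT-DNA+AOA+Asp within it. Nfkb2 was 1.99-fold higher with AOA than in Mock (log2 0.99 ± 0.08 SE, adjusted p = 3.1e-08) and 1.68-fold higher in HT-DNA+AOA than in HT-DNA (log2 0.75 ± 0.08, adjusted p = 6.37e-07). HT-DNA alone raised it 1.34-fold (adjusted p = 0.000649). HT-DNA on top of AOA gave a log2 difference of 0.17 ± 0.08 with an adjusted p of 0.201.

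Relb encodes the partner of p52. Its level was 6.86, 6.04 and 7.07 CPM in Mock, 20.5, 19.4 and 17.3 CPM with AOA, and 5.74, 5.58 and 5.52 CPM in AOA+Asp. It was 9.75, 10.3 and 13.5 CPM with HT-DNA, 19.0, 20.3 and 26.7 CPM in HT-DNA+AOA, and 6.77, 7.41 and 7.43 CPM in HT-DNA+AOA+Asp. The AOA and HT-DNA+AOA ranges overlapped and lay above every other library, and HT-DNA alone lay between them and Mock without overlap. Relb rose 2.87-fold with AOA (log2 1.52 ± 0.14, adjusted p = 5.8e-08), 1.68-fold with HT-DNA (log2 0.75 ± 0.14, adjusted p = 0.000325) and 1.96-fold with AOA on top of HT-DNA (log2 0.97 ± 0.13, adjusted p = 5.69e-06). Aspartate lowered it 3.40-fold in AOA-treated cells (adjusted p = 1.52e-08) and 3.04-fold in HT-DNA+AOA cells (adjusted p = 2.51e-08). In HT-DNA+AOA+Asp it was also 1.55-fold lower than with HT-DNA alone (adjusted p = 0.0014).

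Nfkb1, which encodes p105 and p50, had smaller differences, at most 1.28-fold among those called. Its group means ran from 74.6 ± 2.95 CPM (SD, n = 3) in AOA+Asp to 109 ± 10.3 CPM in HT-DNA+AOA, with 80.7 ± 3.23 CPM in Mock, 95.5 ± 1.95 CPM with AOA and 93.1 ± 6.62 CPM with HT-DNA. AOA raised it 1.18-fold (log2 0.24 ± 0.07, adjusted p = 0.0105), and the AOA and Mock libraries did not overlap. HT-DNA raised it 1.15-fold (adjusted p = 0.0261) and AOA on top of HT-DNA 1.17-fold (adjusted p = 0.017), and in the latter comparison the libraries overlapped. With library totals in place of TMM scaling the adjusted p was 0.274 for AOA, 0.343 for HT-DNA and 0.0640 for AOA on top of HT-DNA. In all, the HT-DNA call was lost in 5 and the call for AOA on top of HT-DNA in 6 of 13 alternative settings. The 5 include the fits without HT-DNA replicate 2 (adjusted p = 0.129), Mock replicate 1 (0.076) and Mock replicate 3 (0.0857). The 6 include those without HT-DNA replicate 1 (0.0816), HT-DNA replicate 3 (0.0733) and HT-DNA+AOA replicate 1 (0.0902).

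The remaining subunit genes, Rela and Rel, were not among the 10. Rela, which encodes the main transactivating subunit, had group means of 61.4 to 74.1 CPM. It did not pass the test with AOA (log2 0.01 ± 0.08, adjusted p = 0.931) or with HT-DNA (log2 0.09 ± 0.08, adjusted p = 0.375), and was lower in HT-DNA+AOA+Asp than in HT-DNA+AOA (log2 −0.22, adjusted p = 0.0288). Rel, which encodes c-Rel, fell with HT-DNA from 14.0 ± 0.593 to 9.47 ± 0.877 CPM (log2 −0.56 ± 0.17, adjusted p = 0.0122). Within each library, the ratio of Nfkb2 to Nfkb1 per kb of exon was 2.64 ± 0.161 (SD, n = 3) in Mock, 4.43 ± 0.0533 with AOA and 2.48 ± 0.178 in AOA+Asp. Its size depends on the exon lengths used, which were the same in every group. With HT-DNA the ratio was 3.06 ± 0.213, with HT-DNA+AOA 3.61, 4.08 and 5.67, and with HT-DNA+AOA+Asp 2.49 ± 0.0521. The ratio of Relb to Rela, set to 1 for the Mock mean, was 2.84 ± 0.166 with AOA, 0.881 ± 0.0796 in AOA+Asp, 1.58 ± 0.294 with HT-DNA, 3.21 ± 0.227 in HT-DNA+AOA and 1.23 ± 0.0489 in HT-DNA+AOA+Asp. Both ratios were thus higher in every library with AOA and no aspartate than in any other library.

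**Figure D2:**
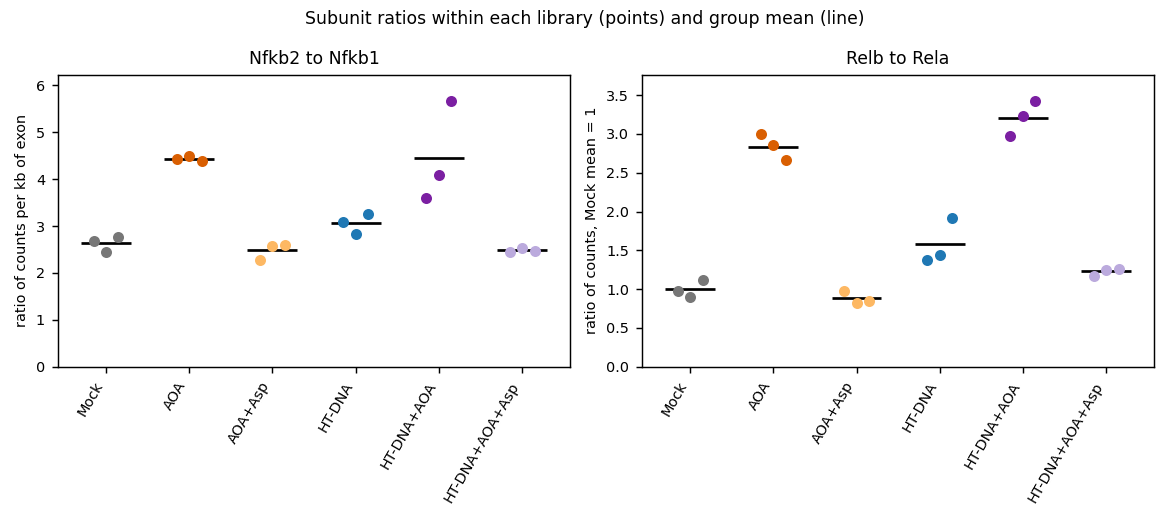
Ratio of Nfkb2 to Nfkb1 in counts per kb of exon (left) and ratio of Relb to Rela relative to the Mock mean (right) in each library (points) with the group mean (line), 3 libraries a group. The 6 libraries with AOA and no aspartate are the highest in both panels, and the Nfkb2 to Nfkb1 ratio spreads from 3.61 to 5.67 within HT-DNA+AOA.

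Among the inhibitors, the 3 classical IκB genes rose with AOA and with HT-DNA. HT-DNA+AOA exceeded AOA alone for Nfkbia and did not pass that test for Nfkbib or Nfkbie in the main fit. Without HT-DNA+AOA replicate 1, Nfkbib (adjusted p = 0.0264) and Nfkbie (0.021) passed it, and Nfkbie also passed with DESeq2 (0.0479). Nfkbia encodes IκBα, the rapidly resynthesized inhibitor of RelA dimers. Its level was 50.6, 56.5 and 62.2 CPM in Mock, 82.5, 77.5 and 82.9 CPM with AOA, and 56.5, 60.2 and 67.4 CPM in AOA+Asp. It was 80.6, 74.0 and 80.0 CPM with HT-DNA, 112, 124 and 143 CPM in HT-DNA+AOA, and 66.0, 63.9 and 65.3 CPM in HT-DNA+AOA+Asp. The AOA and HT-DNA ranges overlapped, and all 3 HT-DNA+AOA libraries lay above them. Nfkbia rose 1.44-fold with AOA (log2 0.52 ± 0.09, adjusted p = 0.000133), 1.39-fold with HT-DNA (log2 0.47 ± 0.09, adjusted p = 0.000467) and 1.62-fold with AOA on top of HT-DNA (log2 0.69 ± 0.09, adjusted p = 4.06e-06). It was 1 of the 3 genes that HT-DNA raised in AOA-treated cells (log2 0.64 ± 0.09, 1.56-fold, adjusted p = 5.88e-05). Aspartate lowered it 1.94-fold in HT-DNA+AOA cells (adjusted p = 1.15e-07), to below HT-DNA alone (log2 −0.27 ± 0.09, adjusted p = 0.023). The latter call was lost without HT-DNA replicate 1 or 3 or HT-DNA+AOA+Asp replicate 2 or 3 (adjusted p 0.0554 to 0.0752).

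Nfkbib, which encodes IκBβ, had group means of 17.8 ± 1.49 CPM (SD, n = 3) in Mock, 29.3 ± 1.16 CPM with AOA, 17.8 ± 1.44 CPM in AOA+Asp, 27.5 ± 0.503 CPM with HT-DNA and 19.0 ± 1.04 CPM in HT-DNA+AOA+Asp. In HT-DNA+AOA its libraries were at 30.0, 30.9 and 42.3 CPM. It rose 1.64-fold with AOA (adjusted p = 3.67e-05) and 1.55-fold with HT-DNA (adjusted p = 0.000219), and 1.25-fold with AOA on top of HT-DNA (log2 0.32 ± 0.11, adjusted p = 0.0208). Replicate 3 of HT-DNA+AOA decided the last value, which was log2 0.15 with an adjusted p of 0.164 without it, and the call was also lost without HT-DNA replicate 1 (0.0576) or 2 (0.0555) and with only the groups compared (0.12). HT-DNA on top of AOA gave log2 0.23 ± 0.11 with overlapping libraries (adjusted p = 0.181). In GENCODE vM21, exons of Nfkbib overlap 314 bases of Ccer2 and 42 bases of Sirt2 on the other strand, and the strand setting of the counting is not given in the sources used here. Ccer2 was at or under 0.0807 CPM in every group mean, and Sirt2 ran from 42.4 to 50.3 CPM.

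Nfkbie, which encodes IκBε, was the least abundant of the 4 IκB genes per kb of exon in every group. Its level was 5.54, 4.73 and 5.36 CPM in Mock, 8.80, 8.54 and 9.36 CPM with AOA, and 6.87, 5.92 and 7.56 CPM with HT-DNA. In HT-DNA+AOA it reached 10.4, 11.6 and 13.1 CPM, and in HT-DNA+AOA+Asp it was back at 5.17, 5.82 and 4.59 CPM, a range that overlapped Mock. It rose 1.70-fold with AOA (log2 0.77 ± 0.15, adjusted p = 0.00033) and 1.72-fold with AOA on top of HT-DNA (log2 0.78 ± 0.14, adjusted p = 0.000184). HT-DNA on top of AOA gave log2 0.39 ± 0.14 without overlap (adjusted p = 0.0746). The smaller rise with HT-DNA alone (1.30-fold, adjusted p = 0.0428) lost its call in 7 of 13 alternative settings, among them leaving out HT-DNA replicate 1 or 3 or any Mock replicate (adjusted p 0.06 to 0.174). The drop in HT-DNA+AOA+Asp relative to HT-DNA (log2 −0.39, adjusted p = 0.0428) was lost in 6 of 13, among them leaving out HT-DNA replicate 1 (0.0951) or 3 (0.172) or HT-DNA+AOA+Asp replicate 1 (0.091) or 3 (0.162).

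Nfkbiz encodes IκBζ, a nuclear member of the family that acts as a cofactor at a subset of NF-κB target genes rather than as a cytoplasmic inhibitor. Its level was 51.0, 54.5 and 48.5 CPM in Mock, 107, 87.2 and 94.4 CPM with AOA, and 42.0, 43.8 and 41.4 CPM in AOA+Asp. It was 36.6, 40.9 and 40.0 CPM with HT-DNA, 144, 129 and 110.5 CPM in HT-DNA+AOA, and 50.0, 52.0 and 49.1 CPM in HT-DNA+AOA+Asp. The HT-DNA libraries were the 3 lowest of the 18, and the HT-DNA+AOA libraries were the 3 highest. All AOA+Asp libraries lay below all Mock libraries (log2 −0.28 ± 0.09, adjusted p = 0.0829). HT-DNA lowered Nfkbiz 1.31-fold (log2 −0.39 ± 0.09, adjusted p = 0.00228), and it was the only 1 of the 10 genes that HT-DNA lowered. In AOA-treated cells HT-DNA raised it 1.33-fold (log2 0.41 ± 0.09, adjusted p = 0.00442), and this call was lost when only the AOA and HT-DNA+AOA libraries were fitted (log2 0.42, adjusted p = 0.148). AOA raised Nfkbiz 1.88-fold without HT-DNA (log2 0.91 ± 0.09, adjusted p = 2.4e-07) and 3.26-fold with it (log2 1.71 ± 0.09, adjusted p = 6.72e-11).

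Tnfaip3 and Tnip1, the genes of the brake, did not pass the test with AOA alone. Tnfaip3 encodes A20, which edits ubiquitin chains upstream of IKK, and Tnip1 encodes ABIN1, which binds A20. Tnfaip3 was at 3.68, 3.11 and 3.04 CPM in Mock, 3.10, 2.36 and 3.31 CPM with AOA, and 4.53, 4.89 and 4.97 CPM in AOA+Asp. With HT-DNA it was at 3.49, 4.36 and 3.45 CPM, in HT-DNA+AOA at 6.11, 5.49 and 3.94 CPM, and in HT-DNA+AOA+Asp at 5.17, 4.52 and 5.54 CPM. All AOA+Asp libraries lay above all Mock and AOA libraries. The difference of AOA+Asp from AOA was 1.65-fold (log2 0.72 ± 0.18, adjusted p = 0.00255), and that from Mock was log2 0.55 ± 0.17 with an adjusted p of 0.0635. AOA alone gave log2 −0.18 ± 0.18 (adjusted p = 0.453) and HT-DNA alone log2 0.20 ± 0.18 (adjusted p = 0.366).

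HT-DNA raised Tnfaip3 1.79-fold in AOA-treated cells (log2 0.84 ± 0.18, adjusted p = 0.00348), a call that was lost when only those 6 libraries were fitted (log2 0.85, adjusted p = 0.108). Relative to HT-DNA alone, Tnfaip3 was 1.38-fold higher in HT-DNA+AOA (adjusted p = 0.033) with overlapping libraries, and 1.35-fold higher in HT-DNA+AOA+Asp (adjusted p = 0.0444). Of 13 alternative settings, the former was lost in 7 and the latter in 6. The former was lost without HT-DNA replicate 1 (adjusted p = 0.105) or 3 (0.115) or HT-DNA+AOA replicate 1 (0.156) or 2 (0.0982), and the latter without HT-DNA replicate 1 (0.134) or 3 (0.144) or HT-DNA+AOA+Asp replicate 1 (0.0985) or 3 (0.143). Aspartate gave a log2 difference of −0.03 ± 0.17 for Tnfaip3 in HT-DNA+AOA cells (adjusted p = 0.884), a value whose sign was positive with library totals (0.05).

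Tnip1 was at 89.3, 84.0 and 82.7 CPM in Mock, 84.3, 83.2 and 81.8 CPM with AOA, and 71.9, 82.3 and 74.9 CPM in AOA+Asp. It was at 104, 104 and 109.8 CPM with HT-DNA, 81.4, 78.5 and 91.1 CPM in HT-DNA+AOA, and 69.5, 72.7 and 71.8 CPM in HT-DNA+AOA+Asp. The HT-DNA libraries were the 3 highest of the 18, and AOA and Mock overlapped. HT-DNA raised Tnip1 1.24-fold (log2 0.31 ± 0.07, adjusted p = 0.00114), and with AOA on top it was 1.27-fold lower (log2 −0.34 ± 0.07, adjusted p = 0.00039). HT-DNA+AOA+Asp was 1.49-fold below HT-DNA (log2 −0.57 ± 0.07, adjusted p = 1.02e-05). The drop with aspartate in HT-DNA+AOA cells (log2 −0.23 ± 0.07, adjusted p = 0.00997) was lost in 4 of 13 alternative settings. These were library totals (log2 −0.14, adjusted p = 0.0783), no filter on low counts (0.0713), only the groups compared (0.0823) and leaving out HT-DNA+AOA replicate 3 (log2 −0.16, adjusted p = 0.0508). AOA alone gave log2 −0.04 ± 0.07 (adjusted p = 0.671), which became −0.17 with an adjusted p of 0.0319 under library totals.

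Birc3 encodes cIAP2, a ubiquitin ligase of the TNF receptor complex and a known NF-κB target. It had the fewest counts of the 10, with 6.32 to 34.4 counts per library, and its precision was correspondingly low. Its level was 1.02, 0.676 and 0.807 CPM in Mock, 0.983, 0.816 and 1.05 CPM with AOA and 0.886, 0.636 and 0.674 CPM in AOA+Asp. It was 1.31, 1.47 and 1.49 CPM with HT-DNA, 0.627, 1.69 and 1.61 CPM in HT-DNA+AOA, and 0.290, 0.818 and 1.09 CPM in HT-DNA+AOA+Asp. The HT-DNA and Mock libraries did not overlap, whereas HT-DNA+AOA spanned the Mock range. Its difference from Mock with HT-DNA was log2 0.77 ± 0.36 (adjusted p = 0.0889), and with AOA log2 0.17 ± 0.38 (adjusted p = 0.741). Aspartate in HT-DNA+AOA cells gave log2 −0.83 ± 0.38 (adjusted p = 0.0815). This passed without HT-DNA+AOA replicate 1 (log2 −1.165, adjusted p = 0.0075) or HT-DNA+AOA+Asp replicate 3 (log2 −1.22, adjusted p = 0.0307). HT-DNA+AOA+Asp was lower than HT-DNA (log2 −0.95 ± 0.37, adjusted p = 0.0432), a call lost in 6 of 12 alternative settings, among them without HT-DNA replicate 1, 2 or 3 or HT-DNA+AOA+Asp replicate 1 or 2 (adjusted p 0.0694 to 0.197). In GENCODE vM21, 11.6% of the 31-base sequences of Birc3 also occur in other genes. This share was higher for Nfkb2 (16.3%) and Nfkbib (14%), and at most 2.08% in the remaining members. The counts of Birc3, Nfkb2 and Nfkbib are thus less certain than those of the others.

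**Figure D3:**
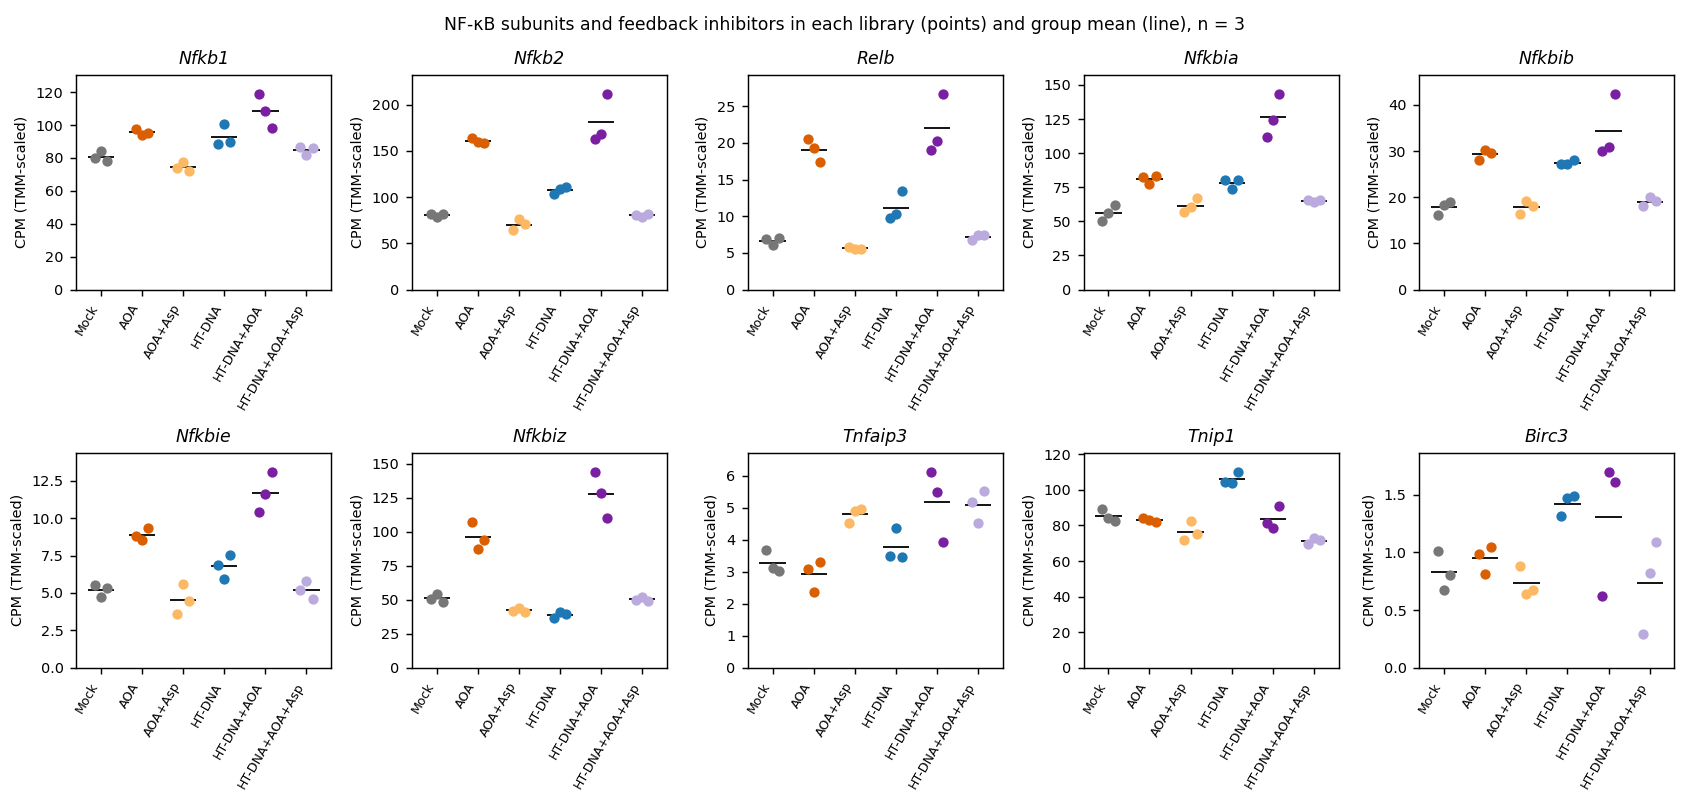
Level of each gene in CPM (linear axes from 0, TMM-scaled) in every library (points, replicates 1 to 3 from left to right) with the group mean (line), for 6 groups of 3 libraries. Nfkb2, Relb, Nfkbia and Nfkbie are higher in AOA than in Mock and in HT-DNA+AOA than in HT-DNA. They are lower in each group with aspartate than in the same group without it, and HT-DNA alone also raises them. HT-DNA+AOA+Asp was not tested against Mock, and for Nfkbia its libraries (63.9 to 66.0 CPM) lie above those of Mock (50.6 to 62.2 CPM). Nfkbiz is lowered by HT-DNA alone, and Tnip1 is highest with HT-DNA alone.

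Whether AOA acted differently with HT-DNA was tested as an interaction, the effect of AOA with HT-DNA minus its effect without. It passed for 2 of the 10 genes, Nfkbiz (higher) and Tnip1 (lower), where 7.23% of all genes had a higher and 8.26% a lower effect with HT-DNA. For Nfkbiz the interaction was 0.80 ± 0.13 on the log2 scale (adjusted p = 0.000736), and it kept its call in all 19 alternative settings, at 0.70 to 0.90. For Tnip1 it was −0.30 ± 0.10 (adjusted p = 0.0396), and the call was lost in 14 of 19 settings, at −0.32 to −0.21 with adjusted p 0.0517 to 0.116. Of the 12 fits without 1 library, 10 lost it, and the call was kept only without Mock replicate 1 or HT-DNA+AOA replicate 3. The interaction of Relb was −0.55 ± 0.19 (adjusted p = 0.0527), of Nfkbib −0.40 ± 0.15 (0.0851), of Tnfaip3 0.64 ± 0.25 (0.0857) and of Nfkb2 −0.25 ± 0.12 (0.152). Without HT-DNA+AOA replicate 3 these 4 passed, Relb at −0.71 (adjusted p = 0.00233), Nfkbib at −0.57 (0.000844), Tnfaip3 at 0.80 (0.0118) and Nfkb2 at −0.38 (0.00247). Relb also passed without HT-DNA replicate 1 (−0.64, adjusted p = 0.0469) and with no filter on low counts (−0.56, 0.0295). With the replicate number as a block, Relb (−0.56, adjusted p = 0.0422) and Nfkbib (−0.41, 0.0497) passed. The interactions of Nfkbia (0.17 ± 0.13), Nfkbie (0.01 ± 0.21), Nfkb1 (−0.02 ± 0.10) and Birc3 (−0.30 ± 0.52) did not pass, with adjusted p from 0.363 to 0.975.

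**Figure D4:**
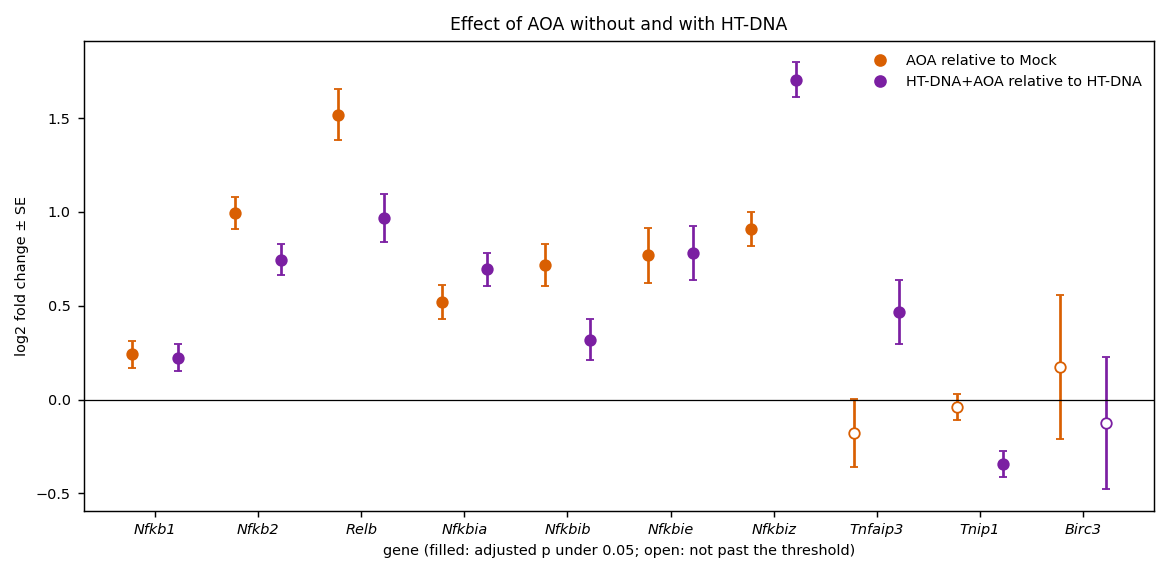
Effect of AOA as log2 fold change with its SE (bars) without HT-DNA (orange) and with HT-DNA (purple) for each gene, filled where the adjusted p from edgeR is under 0.05. The Nfkbiz points are farthest apart in the upward direction (0.91 and 1.71), and Relb is lower with HT-DNA (1.52 and 0.97).

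The response to HT-DNA was measured in 3 settings that do not share libraries with each other. In untreated cells the 10 log2 fold changes ran from −0.39 (Nfkbiz) to 0.77 (Birc3), with a median of 0.40. In AOA-treated cells they ran from 0.01 (Tnip1) to 0.84 (Tnfaip3), with a median of 0.31. In cells with AOA and aspartate they ran from −0.10 (Tnip1) to 0.36 (Relb), with a median of 0.14. In that last setting Relb was at 0.36 ± 0.15 (adjusted p = 0.231), Nfkbiz at 0.25 ± 0.09 (0.178), Nfkb1 at 0.19 ± 0.07 (0.204) and Nfkb2 at 0.19 ± 0.08 (0.283). The libraries of these 4 genes did not overlap between the groups, but none of the 4 passed the test unless only these 6 libraries were fitted, when Nfkbiz, Nfkb1 and Nfkb2 passed. Nfkbia, with 0.08 ± 0.09 (adjusted p = 0.734), overlapped. The difference between the response with AOA and aspartate and the other responses was not tested.

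**Figure D5:**
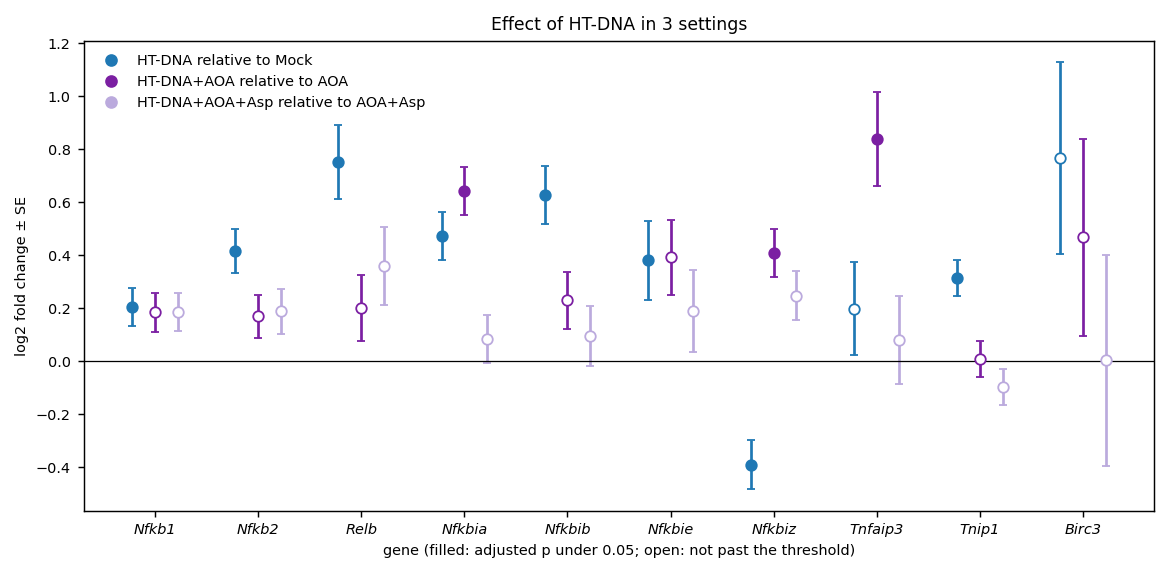
Response to HT-DNA as log2 fold change with its SE (bars) in cells without AOA (blue), with AOA (purple) and with AOA and aspartate (light purple), filled where the adjusted p from edgeR is under 0.05. There are 8 filled points without AOA, 3 with AOA (Nfkbia, Nfkbiz and Tnfaip3) and 0 with AOA and aspartate, and Nfkbiz is negative without AOA and positive with it.

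Levels can be compared between genes only per length, taken here as the merged exons of all annotated transcripts. This can exceed the length of the mRNA in these cells, so the order is approximate. It was 12061 bases for Nfkb1 and 4584 bases for Nfkb2, whose Mock means were 80.7 and 80.8 CPM. Per kb of merged exon in GENCODE vM21, the Mock order was Nfkbia (35.03 CPM per kb), Tnip1 (24.12), Nfkb2 (17.6), Nfkbiz (10.2), Nfkbib (8.21), Nfkb1 (6.70), Relb (1.71), Nfkbie (1.71), Tnfaip3 (0.453) and Birc3 (0.166). Relb and Nfkbie overlapped, and the other neighbours did not. In HT-DNA+AOA the order was Nfkbia (78.6 CPM per kb), Nfkb2 (39.5), Nfkbiz (25.5), Tnip1 (23.6), Nfkbib (15.9), Nfkb1 (8.997), Relb (5.65), Nfkbie (3.84), Tnfaip3 (0.717) and Birc3 (0.262), where Nfkbiz and Tnip1 overlapped. Nfkb2 stood above Tnip1 in AOA and in HT-DNA+AOA, and below it in the other 4 groups. Exons of Nfkb2 overlap 531 bases of AC114539.1 and 299 bases of Psd on the other strand. The level of Psd was 12.3 ± 0.298 CPM in Mock, 10.5 ± 1.07 CPM with AOA and 15.03 ± 0.461 CPM with HT-DNA. That of AC114539.1 was not examined.

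Other genes of the pathway were counted in 5 lists. Across all genes tested, 22.4% rose and 23.3% fell with AOA. Of 11 IKK subunits and upstream kinases, 0 rose and 5 fell with AOA by edgeR, among them the IKK-related kinases Tbk1 (59.5 to 35.1 CPM, log2 −0.76) and Ikbke (19.1 to 9.77 CPM, log2 −0.97). Map3k14, which encodes NIK, the kinase that directs p100 processing, rose with HT-DNA from 14.8 to 20.7 CPM (log2 0.48 ± 0.09, adjusted p = 0.000457). It fell to 9.24 CPM in HT-DNA+AOA (log2 −1.16 ± 0.10 relative to HT-DNA, adjusted p = 1.68e-08), where Nfkb2 and Relb were higher than with HT-DNA alone. Of 9 receptors, 2 rose and 5 fell with AOA. Cd40, a receptor that feeds the non-canonical arm, rose from 25.4 to 81.0 CPM (log2 1.67). Ltbr, another receptor gene of that arm, went the other way, from a mean of 75.3 CPM in Mock to 60.6 CPM with AOA. Tlr4 fell from 37.2 to 8.62 CPM (log2 −2.11). Sting1, which encodes STING, fell from 11.0 to 5.70 CPM (log2 −0.95). Among 18 tested adaptors and ubiquitin enzymes, 7 rose and 2 fell with AOA, and the adaptor Traf1 rose most, from 3.63 to 7.45 CPM.

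With HT-DNA alone, 2 of the 11 kinases rose and 7 fell, and 4 of the 9 receptors rose and 3 fell. Of the 18 adaptors and ubiquitin enzymes, 8 rose and 4 fell, where 24.2% of all genes rose and 24.0% fell. With AOA on top of HT-DNA, where 22.8% of all genes rose and 22.7% fell, the counts were 4 and 6 for kinases. They were 5 and 4 for receptors, and 6 and 5 for adaptors and ubiquitin enzymes. Aspartate in HT-DNA+AOA cells raised 5 kinases and lowered 1, and raised 3 receptors and lowered 5. It raised 5 adaptors and ubiquitin enzymes and lowered 10, where 23.7% of all genes rose and 23.9% fell. Usp18, an interferon-induced deISGylase, rose with AOA on top of HT-DNA, from 6.18 CPM with HT-DNA to 43.3 CPM in HT-DNA+AOA (log2 2.81 ± 0.16). Of the remaining subunit and IκB genes, 3 of 4 were tested. Among them Nfkbid, which encodes the nuclear protein IκBNS, fell with AOA from 7.45 to 4.44 CPM (log2 −0.74 ± 0.13, adjusted p = 0.000179) and was lower in HT-DNA+AOA than in HT-DNA (log2 −0.92 ± 0.13, adjusted p = 1.59e-05), where Nfkbiz was higher.

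Target genes outside the feedback loop, such as chemokine and cytokine genes, were the last list. Of the 18 tested, 11 rose and 5 fell with AOA, 7 rose and 3 fell with HT-DNA, and 11 rose and 3 fell with AOA on top of HT-DNA. Over all genes, 22.4% rose and 23.3% fell with AOA, and 24.2% rose and 24.0% fell with HT-DNA. With AOA on top of HT-DNA, 22.8% rose and 22.7% fell. In HT-DNA+AOA cells, aspartate lowered 14 and raised 1, where 23.9% of all genes fell and 23.7% rose. In AOA-treated cells aspartate lowered 11 and raised 2 (22.8% and 23.5% of all genes), and HT-DNA raised 10 and lowered 0 (6.46% and 6.98%). Relative to Mock, AOA+Asp was lower in 6 and higher in 0, where 3.95% of all genes fell and 2.52% rose. Among the 6 were Cxcl1 (170 to 81.3 CPM, log2 −1.07) and Lif (11.7 to 6.35 CPM, log2 −0.88). The chemokine gene Cxcl2 rose from 9.55 CPM in Mock to 71.0 CPM with AOA (log2 2.89 ± 0.12) and from 7.62 CPM with HT-DNA to 138 CPM in HT-DNA+AOA (log2 4.17 ± 0.13). Like Nfkbiz, it was lower with HT-DNA alone than in Mock (log2 −0.32, adjusted p = 0.0495). Il6, the cytokine gene, was at 0.685 CPM with HT-DNA and 6.62 CPM in HT-DNA+AOA (log2 3.25 ± 0.29). The largest falls in this list with AOA were those of Irf1 (log2 −0.71) and Bcl2l1 (log2 −0.50). With AOA on top of HT-DNA they were those of Bcl2l1 (log2 −0.64) and Gadd45b (log2 −0.50).

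Across the 18 libraries, log2 levels of the 45 pairs of members correlated from r = −0.42 (Tnfaip3 and Tnip1) to 0.99 (Nfkb2 and Relb), with a median of 0.57. These values describe libraries that share 6 treatments, so they mainly compare group means. Among 12131 genes, Relb ranked next after Adgra2 (0.992) in likeness to Nfkb2, with r = 0.989, and Nfkb2 ranked highest for Relb. The genes most like Nfkbiz were Slc20a1 (0.981), Cxcl2 (0.979) and Vegfa (0.978). For Nfkbib it was Ciapin1 (0.987), for Nfkbie Tgm2 (0.970), for Nfkb1 Eaf1 (0.966), for Nfkbia Fam177a (0.956) and for Tnip1 Erf (0.950). Tnfaip3 and Birc3 had lower best values, 0.886 with Usp16 and 0.859 with Sqor.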

How the data were processed

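L929 total RNA was extracted with TRIzol and sequenced, with 18 libraries in 6 groups of 3 taken from the sample labels. The authors deposited estimated counts (expected counts) of reads per gene without normalization, of which 11.6% were not whole. They were rounded. The aligner, counting program, strand setting and genome build are not given in the sources used here. Pooled group means in the table were not used.

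The main test used edgeR 4.0.16 under R 4.3.3. Genes were filtered by filterByExpr (at least 10 counts, 15 in total, groups of 3), and libraries were scaled with TMM and fitted in 1 robust quasi-likelihood model over all libraries, with Benjamini-Hochberg adjustment over 14263 genes and a threshold of 0.05. CPM are given with the SD, and log2 fold changes with the SE. Gene lengths, overlaps and shared 31-base sequences came from GENCODE vM21, and promoters from RefSeq (GRCm38.p6), which may not match the build the authors used. Steps were tested on simulated data.

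The 10 genes and the lists were chosen with earlier results of these data known. All 10 were named in every comparison. Of the other lists, Rela, Rel and Ltbr were named. Up to 2 rises and 2 falls per comparison, with the largest log2 fold change and at least 1 CPM, were also named. The 3 genes most like each member were considered as well. Alternatives were DESeq2 1.42.0, RLE size factors, library totals, 10 counts in every library, no filter, a replicate block, each library left out in turn and a fit restricted to each comparison's own groups. Counting error alone is smaller than the spread between replicates, and errors come from the model.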

Additional observations from a re-analysis of the deposited data

Results flagged for a closer look

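The effect of AOA differed between cells without and with HT-DNA for 2 genes. For Nfkbiz the interaction was 0.80 on the log2 scale, from group means of 51.3 to 96.3 CPM without HT-DNA and 39.2 to 128 CPM with it. The HT-DNA libraries were the 3 lowest of the 18 and the HT-DNA+AOA libraries the 3 highest. For Tnip1 the interaction was −0.30, from 85.3 to 83.1 CPM without HT-DNA and 106 to 83.7 CPM with it, and its call was lost in 14 of 19 alternative settings. Both interactions include the HT-DNA+AOA group, whose libraries differed most among themselves. Without each HT-DNA+AOA library in turn, Nfkbiz kept its call.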

How the results depend on the processing

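Of 1350 alternative values of the 100 log2 fold changes, 1219 kept their direction and their side of the threshold, 72 lost the call, 26 gained it and 33 changed sign. None of the 33 belonged to a called value, and the largest of them was 0.396 in size. The cause was not tested in any case. The number of genes called in AOA+Asp vs Mock, 0, was 1 with DESeq2, 1 with library totals and 3 with only the groups compared. That in HT-DNA vs Mock, 8, was 6 to 7 without 1 library, and the higher ones went from 7 to 5 without Mock replicate 1 or 3. That in HT-DNA+AOA vs AOA, 3, was 5 with DESeq2 and 1 with only the groups compared, and 3 to 6 without 1 library. That in HT-DNA+AOA vs HT-DNA, 9, was 6 with only the groups compared and 6 to 8 without 1 library, with 6 without HT-DNA replicate 1, and the higher ones among them went from 8 to 5 in both. That in HT-DNA+AOA+Asp vs AOA+Asp, 0, was 3 with only the groups compared. That in HT-DNA+AOA+Asp vs HT-DNA, 9, was 5 to 8 without 1 library, with 5 without HT-DNA replicate 1 or 3. The 2 interactions called were 1 with library totals, only the groups compared or RLE size factors, and 1 to 6 without 1 library, with 6 without HT-DNA+AOA replicate 3.

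The replicate numbers were not taken to pair the libraries, since the labels name no shared batch and not every pair's deviations from the group means correlated over 0.1. The median was 0.0081 for the same number and 0.0083 for different numbers. Over 0.1 were 7 of 45 pairs with the same number (highest 0.278, AOA replicate 1 with HT-DNA+AOA replicate 1) and 3 of 90 with different numbers. The share over 0.1 was thus larger for the same number, and the rule used would miss a pairing of only some libraries. With the replicate number as a block, 4 interactions were called (Nfkbib, Nfkbiz, Tnip1 and Relb), and the Tnfaip3 call in HT-DNA+AOA+Asp vs HT-DNA was lost.

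Values that changed sign with library totals were Birc3 in HT-DNA+AOA+Asp vs AOA+Asp (−0.0092, and −0.030 with the block), the Nfkb1 interaction (0.076, and 0.0032 with 10 counts in every library), Nfkbib in AOA+Asp vs Mock (−0.045, with −0.00053 without a filter and −0.0043 with only the groups compared), Tnfaip3 in HT-DNA+AOA+Asp vs HT-DNA+AOA (0.051) and Tnip1 in HT-DNA+AOA vs AOA (−0.010). The Nfkbie interaction was −0.00020 without a filter and −2.7e-05 with only the groups compared.
Without 1 library, the ranges of values that changed sign were −0.37 to 0.21 (Birc3, HT-DNA+AOA vs HT-DNA), −0.396 to 0.38 (Birc3, HT-DNA+AOA+Asp vs AOA+Asp), −0.54 to 0.041 (Birc3, interaction), −0.091 to 0.064 (Nfkb1, interaction), −0.068 to 0.060 (Nfkbib, AOA+Asp vs Mock), −0.074 to 0.097 (Nfkbie, interaction), −0.19 to 0.10 (Tnfaip3, HT-DNA+AOA+Asp vs HT-DNA+AOA) and −0.056 to 0.053 (Tnip1, HT-DNA+AOA vs AOA).

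Library totals moved the median of all genes by −0.13 for AOA vs Mock and −0.11 for HT-DNA vs Mock. The share of calls that were higher also moved for AOA+Asp vs AOA (50.7% with TMM and 62.2% with library totals), AOA+Asp vs Mock (39.0% and 20.9%), HT-DNA+AOA+Asp vs HT-DNA+AOA (49.8% and 62.2%) and the interaction (46.7% and 64.5%). With only the groups compared, the genes called among all genes went from 923 to 2462 for AOA+Asp vs Mock, 1917 to 394 for HT-DNA+AOA vs AOA, 492 to 1896 for HT-DNA+AOA+Asp vs AOA+Asp, 6477 to 4167 for HT-DNA+AOA vs HT-DNA, 6797 to 4278 for HT-DNA+AOA+Asp vs HT-DNA+AOA and 2209 to 1019 for the interaction. Birc3 gave no value with 10 counts in every library, and depth limited it, with 6.32 to 34.4 counts per library.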
